A study of Mus musculus with 6 samples.

Results

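Nt5e, the cell surface Entpd enzymes and the adenosine receptors Adora2a and Adora2b belong to the route by which extracellular ATP becomes adenosine and is sensed. Grouped with them here are the Entpd enzymes that act mainly inside the cell. The 10 genes were listed by name and were selected on the difference between genotypes in these same arrays, because Nt5e and Entpd genes moved. Of the 10, 8 had a probe set annotated with that symbol alone, out of 19935 genes measured in this way, and each of the 8 had 1 such probe set. Adora2a and Adora2b were not analysed here. Because the comparison of genotypes chose these genes, their differences are given as a description and carry no test.

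ATP that leaves a cell acts on P2 receptors until membrane enzymes remove its phosphates. Entpd1 (CD39), Entpd2 and Entpd3 sit on the cell surface and cut ATP and ADP. Nt5e (CD73) then turns AMP into adenosine, the ligand of the adenosine receptors. Entpd4, Entpd5, Entpd6 and Entpd7 belong to the same enzyme family but act mainly inside the secretory and endosomal compartments. In bone, osteoblasts release ATP, and adenosine made by CD73 is known to act on their differentiation.

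The arrays measured total RNA of osteoblastic cells from male mice, 4 arrays from wild-type (WT) animals and 2 from animals deficient in Y1, a receptor for neuropeptide Y (Y1KO). In both genotypes the mice carried GFP under a 3.6-kb rat alpha1(I)-collagen promoter fragment, and GFP-positive cells were sorted from marrow stromal cultures of femora and tibias after 7 days. The labels give no age or strain. They also leave it unsaid if an array stands for a single mouse, a culture or a pool, and any p-value therefore measures only the spread between these arrays, which may be technical. Values are log2 expression, differences are Y1KO minus WT with the standard error (SE) of the linear model, and ± is the SD.

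Correlations over all genes were 0.991 to 0.996 among the WT arrays, 0.996 between the Y1KO arrays and 0.976 to 0.987 across genotypes. Npy1r, the gene of the Y1 receptor, read 2.78 to 3.11 in WT and 2.83 and 2.89 in Y1KO, near the bottom of the range, and so checks the genotype neither way. All 7 measured osteoblast markers of 10 listed, among them Col1a1, Ibsp and Alpl, lay above the median gene in WT. By limma 0 of the 7 were called, but 6 were higher on both Y1KO arrays than on every WT array, beside 17.5% of all genes. Their mean level was 10.74 to 11.70 in WT and 11.96 to 12.08 in Y1KO. The largest differences were those of Dmp1 (1.66) and Phex (1.53, overlapping between genotypes), and the remaining 5 differed by 0.18 to 0.47. Markers of other cell types moved between genotypes as well. In counts of genes, rose and fell mean limma calls at an adjusted p under 0.05, given to 6.1% (higher) and 6.64% (lower) of all genes. Of 12 macrophage markers 7 rose and 0 fell, with a mean level of 5.10 to 5.25 in WT and 5.44 to 5.78 in Y1KO. Of 10 smooth muscle and pericyte markers 7 fell and 1 rose, with mean levels of 8.78 to 9.03 and 7.98 to 8.10, and of 10 marrow stromal progenitor markers 5 fell and 0 rose, with mean levels of 8.15 to 8.41 and 7.18 to 7.27. Of 8 granulocyte markers 0 rose and 0 fell. Of 7 lymphocyte markers 1 rose, Cd4 at percentile 17.4 of the WT means, and 0 fell. None of 9 endothelial markers passed the limma test, where 0 also had an unadjusted p under 0.05, beside 24.3% of all genes. In sorted bulk cells a change in the share of a cell type and a change in RNA per cell cannot be told apart, and the part of these markers in the values below was not tested.

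Of the 8 measured genes, 5 were higher on both Y1KO arrays than on every WT array: Nt5e, with the largest difference of the 5, Entpd3, Entpd7, Entpd4 and Entpd5. The values of Entpd1, Entpd2 and Entpd6 overlapped between genotypes. The median difference over the 8 genes was 0.67 log2 units, beside 0.01 over all genes. By limma, at an adjusted p under 0.05 over all genes, 4 of the 8 were called higher (Nt5e, Entpd4, Entpd5 and Entpd7) and 0 lower, where 6.1% of all genes were called higher and 6.64% lower. Higher genes made up 47.9% of all calls, and 60.5% when each array was centred to a common median, which left the count of 4 as it was. Both Y1KO arrays lay above all WT arrays for 17.5% of all genes and below them for 17.3%. Nothing is read from the counts of these 8 genes against those shares, since the genes were chosen on this contrast.

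**Figure D1:**
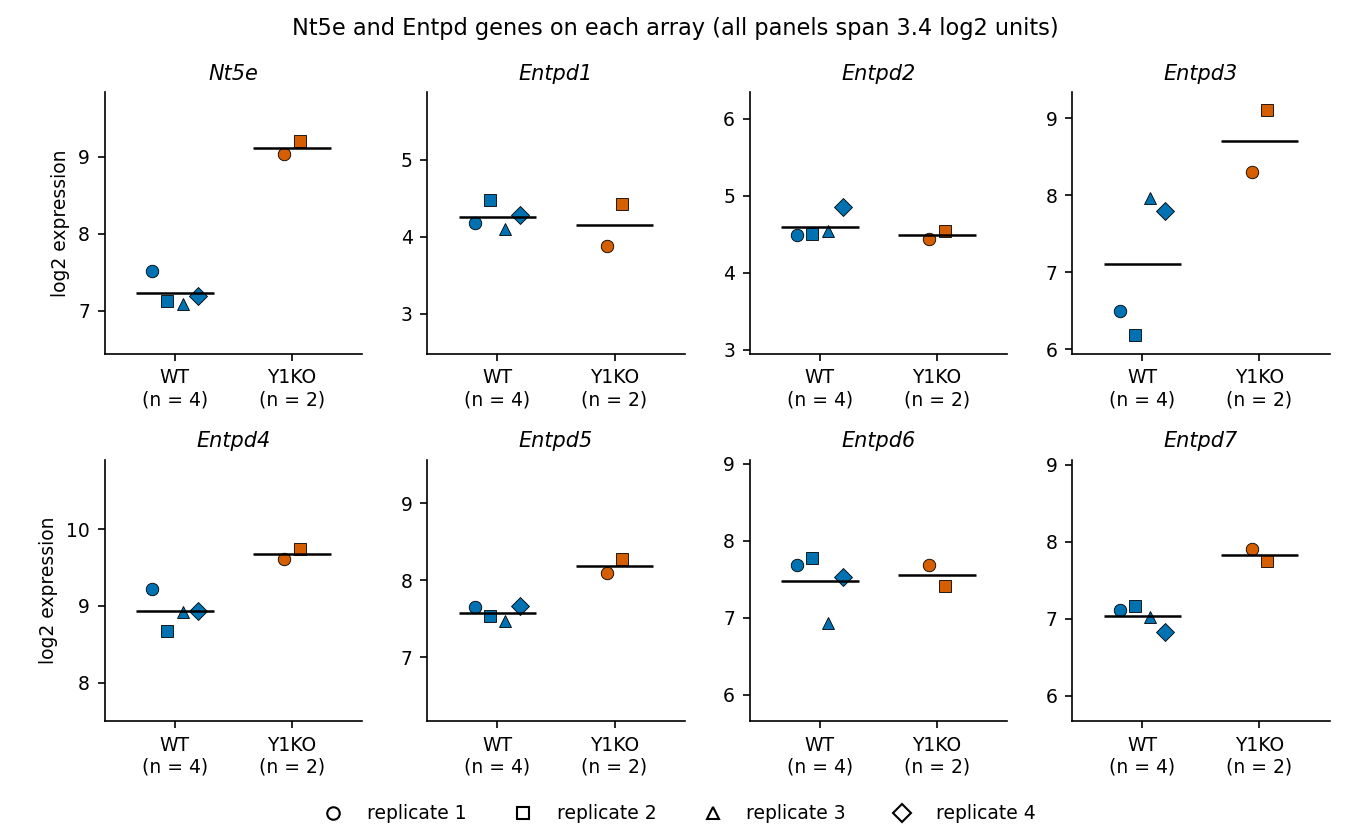
Log2 expression (vertical axis, 3.4 units in each panel) of Nt5e and the 7 Entpd genes on the 4 WT and 2 Y1KO arrays. Points are arrays, symbols mark the replicate number and bars are group means. The Y1KO points lie above every WT point for Nt5e, Entpd3, Entpd4, Entpd5 and Entpd7, and the 4 WT points of Entpd3 fall into a high and a low pair.

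Nt5e encodes CD73, the membrane-anchored enzyme that makes adenosine from AMP. WT replicates 1 to 4 gave log2 values of 7.51, 7.13, 7.08 and 7.19, and the Y1KO arrays gave 9.03 and 9.20. The groups did not overlap, and 1.53 log2 units separated the highest WT array from the lowest Y1KO array, while the WT arrays spanned 0.43 and the Y1KO arrays differed by 0.17. The mean went from 7.23 ± 0.19 (SD, n = 4) to 9.12 ± 0.12 (SD, n = 2), a difference of 1.89 (SE 0.13) or 3.71-fold. This was the increase of rank 10 among all 19935 genes. The gene moved from percentile 70.9 of all genes in WT to percentile 92.6 in Y1KO. Over 14 alternative ways of processing or leaving out an array, the difference lay between 1.80 and 1.99.

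Of the surface enzymes that feed Nt5e with AMP, Entpd3 was higher in Y1KO and Entpd1 and Entpd2 showed no separation. Entpd3, which cuts ATP and ADP, read 6.50, 6.18, 7.97 and 7.79 in order of the WT replicates, against 8.30 and 9.11 on the Y1KO arrays. WT replicates 1 and 2 were low and replicates 3 and 4 high, and the highest WT array lay 0.33 below the lower Y1KO array. The mean went from 7.11 ± 0.90 (SD, n = 4) to 8.70 ± 0.57 (SD, n = 2), a difference of 1.59 (SE 0.50). Its WT SD of 0.90 compares with a median WT SD of 0.12 over all genes. The difference ranged from 1.19 without Y1KO replicate 2 to 2.36 with the replicate number as a block. No Y1KO array carries the number 3 or 4, so the block fit leaves the high WT pair out of the difference.

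Entpd1 encodes CD39, the surface enzyme best known from leukocytes and blood vessels, which takes ATP and ADP to AMP. It read 4.18, 4.48, 4.10 and 4.28 in WT and 3.88 and 4.42 in Y1KO. Its WT mean lay at percentile 27.6 of all genes, where the array can understate a change. One Y1KO array lay below and the other within the WT range, and the difference of -0.11 had a 95% interval of -0.47 to 0.26. Leaving out Y1KO replicate 1 gave 0.16 and leaving out Y1KO replicate 2 gave -0.38, so its sign rested on 1 array. The pan-leukocyte Ptprc stood at 4.18 ± 0.06 (SD, n = 4) for WT, against 4.33 ± 0.01 (SD, n = 2) for Y1KO. It was not among the 7 of 12 macrophage markers that passed the limma test. Both Y1KO arrays lay above every WT array for Ptprc, which was 1 of 8 such macrophage markers, beside 17.5% of all genes.

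Entpd2, which prefers ATP over ADP, was also low on the array, at percentile 33.3 of all genes in WT. Its values were 4.49, 4.51, 4.53 and 4.85 in WT and 4.44 and 4.54 in Y1KO. WT replicate 4 stood above the other arrays and the remaining values lay close together, with a difference of -0.11 (SE 0.12, 95% interval -0.38 to 0.17).

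Among the organelle enzymes, Entpd4, Entpd5 and Entpd7 were higher in Y1KO and Entpd6 was not separated. Entpd4, an enzyme of the Golgi and lysosomes, read 9.23, 8.67, 8.92 and 8.93 in WT and 9.61 and 9.73 in Y1KO. The highest WT array, replicate 1, lay 0.39 below the lower Y1KO array, and the difference was 0.73 (SE 0.14), a 1.66-fold increase. Entpd5, an endoplasmic reticulum enzyme that cuts UDP during glycoprotein folding, read 7.65, 7.53, 7.46 and 7.67 in WT and 8.09 and 8.27 in Y1KO. The 4 WT arrays spanned 0.20 and lay entirely below the Y1KO arrays, with a difference of 0.60 (SE 0.10) or 1.52-fold.

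Entpd7, an enzyme of intracellular vesicles, read 7.11, 7.16, 7.03 and 6.82 in WT and 7.91 and 7.75 in Y1KO. The groups were 0.59 apart, and the mean went from 7.03 ± 0.15 (SD, n = 4) to 7.83 ± 0.11 (SD, n = 2), a difference of 0.80 (SE 0.11) or 1.74-fold. Entpd6, found in the Golgi and as a secreted form, read 7.69, 7.78, 6.93 and 7.53 in WT and 7.69 and 7.42 in Y1KO. Both Y1KO values fell within the WT range, which WT replicate 3 widened at its low end. The difference of 0.07 (SE 0.22, 95% interval -0.42 to 0.56) changed sign in 4 of the 14 alternatives and reached -0.18 with the replicate number as a block.

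**Figure D2:**
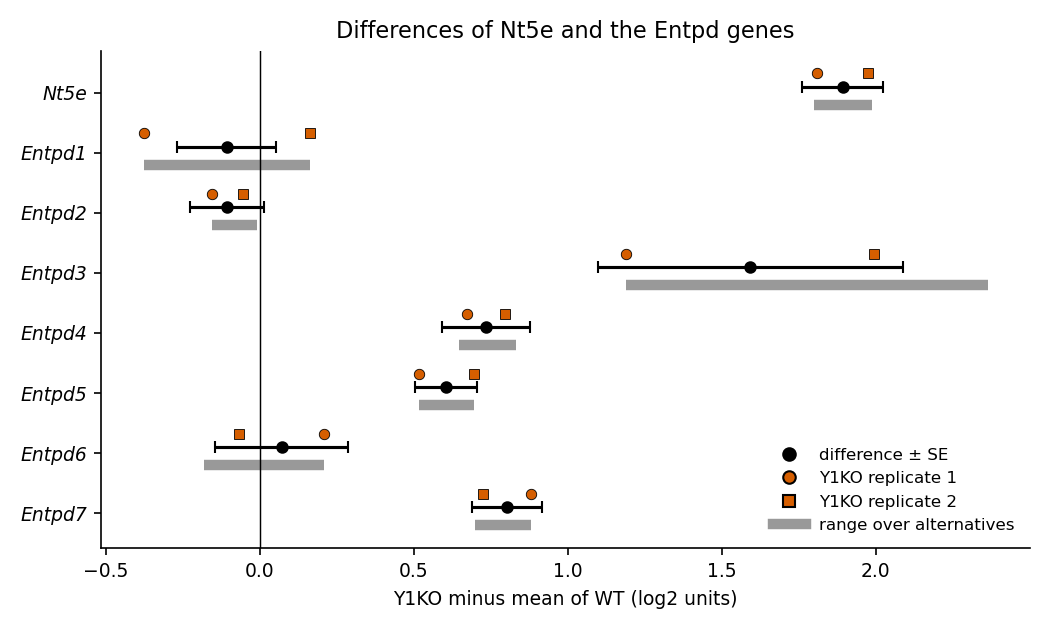
Difference between Y1KO and the WT mean in log2 units (horizontal axis) for Nt5e and the 7 Entpd genes. Black points with bars are the difference ± SE, orange symbols are the 2 Y1KO arrays and grey bars span the alternatives; Nt5e lies at 1.89 with a narrow range, while the range of Entpd3 runs from 1.19 to 2.36 and those of Entpd1 and Entpd6 cross 0.

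With 1 Y1KO array left out, the WT arrays alone give the spread and the remaining Y1KO array is assumed to vary like them. Leaving out Y1KO replicate 1 left 3 genes called higher and leaving out Y1KO replicate 2 left 2, while without moderation of the variance 1, Nt5e, was called. Nt5e and Entpd7 stayed called with either Y1KO array left out. Entpd4 was not called without Y1KO replicate 1 or without Y1KO replicate 2, with differences of 0.80 and 0.67 beside 0.73, and Entpd5 was not called without Y1KO replicate 2, with 0.52 beside 0.60. Entpd3 was called when WT replicate 3 was left out, with array weights and with the replicate number as a block. The block fit takes the difference from replicates 1 and 2 alone, the low WT pair of Entpd3.

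The start-site sequences of the 4 separated genes with an entry are shown to compare the promoters of the genes that were higher in Y1KO. Each is the RefSeq GRCm38.p6 window from 250 bases before to 50 after the transcription start, written 5′ to 3′ on the strand of the gene. Capitals mark matches, on either strand, to any of 6 motifs: the cAMP response element TGACGTCA, its shortened form TGACG, the AP-1 element TGANTCA, the GC box GGGCGG, the E-box CACGTG and the TATA motif TATAAA. Every match to the full cAMP element is also a match to the shortened form. Entries were found for 7 of the 8 measured genes.
Nt5e, chr9:88327359-88327658, plus strand: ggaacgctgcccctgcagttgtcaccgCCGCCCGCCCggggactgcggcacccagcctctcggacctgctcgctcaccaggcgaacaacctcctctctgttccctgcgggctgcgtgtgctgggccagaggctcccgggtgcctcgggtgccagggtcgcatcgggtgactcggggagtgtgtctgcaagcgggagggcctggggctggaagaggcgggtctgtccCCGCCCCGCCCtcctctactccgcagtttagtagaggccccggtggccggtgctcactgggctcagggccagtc
Entpd3, chr9:120539568-120539867, plus strand: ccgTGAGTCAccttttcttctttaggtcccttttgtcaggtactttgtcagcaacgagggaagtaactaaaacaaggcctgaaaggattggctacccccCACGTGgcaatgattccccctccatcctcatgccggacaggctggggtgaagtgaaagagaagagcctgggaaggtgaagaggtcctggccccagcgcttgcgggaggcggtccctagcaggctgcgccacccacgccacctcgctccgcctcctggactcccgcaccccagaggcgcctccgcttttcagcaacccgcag
Entpd5, chr12:84408980-84409279, minus strand: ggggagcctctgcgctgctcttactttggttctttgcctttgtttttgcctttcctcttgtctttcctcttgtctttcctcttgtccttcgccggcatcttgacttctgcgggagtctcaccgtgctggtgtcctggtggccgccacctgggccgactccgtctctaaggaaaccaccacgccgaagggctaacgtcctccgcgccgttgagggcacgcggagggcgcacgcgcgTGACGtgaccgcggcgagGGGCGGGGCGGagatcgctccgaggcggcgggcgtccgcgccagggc
Entpd7, chr19:43689439-43689738, plus strand: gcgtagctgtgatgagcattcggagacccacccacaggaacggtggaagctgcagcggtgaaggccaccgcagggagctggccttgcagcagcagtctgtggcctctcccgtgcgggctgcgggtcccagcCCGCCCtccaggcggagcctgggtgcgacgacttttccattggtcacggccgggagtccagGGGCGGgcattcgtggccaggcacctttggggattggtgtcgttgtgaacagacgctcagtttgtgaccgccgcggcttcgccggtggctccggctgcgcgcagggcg

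GC boxes, the motif bound by Sp-family factors, were found in 4 of these 7 genes, Nt5e, Entpd2, Entpd5 and Entpd7, beside 35.7% of all 32851 promoter windows of the same length. Nt5e held 4 matches in 2 overlapping pairs, with first bases at positions -223, -219, -24 and -19 from the start. Entpd7 held 2, at positions -119 and -58, and Entpd5 held 2 overlapping ones just past the start, at positions 4 and 9. Entpd3 held no GC box and had an AP-1 match at position -247 and an E-box at position -151. Entpd2, which was not separated, also held an AP-1 match, at position -99. The AP-1 element is held by 7.81% of all windows and the E-box by 7.15%.

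The Y1 receptor lowers cAMP, so the cAMP elements were searched as well. The full element was in none of the 7 genes' windows and in 1.79% of all windows. The shortened form was in Entpd1, Entpd5 and Entpd6, 1 gene separated between genotypes and 2 not, and in 20.8% of all windows. The windows of the separated genes Nt5e, Entpd3, Entpd5 and Entpd7 were 71%, 60.3%, 65.3% and 68% G and C. Of the genes that were not separated, Entpd2 stood at 62%, the 2 windows of Entpd1 at 64% and 48.7% and those of Entpd6 at 55% and 55.3%, beside a median of 52.7% over all windows. The letters of a match are a description and do not show binding, and motifs outside these windows were not searched.

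The other genes of purine signalling were listed by role, and 51 of 56 were measured. Adora1, Adora3, Enpp1, Cd38 and Ahcy were not analysed here. By limma 3 rose and 4 fell, 5.88% and 7.84% of the 51, close to the 6.1% and 6.64% of all genes. The median difference was -0.05, beside 0.01 over all genes, and the median size 0.16 beside 0.12. Shares this near the background are no result about the list, and the genes that passed are described one by one.

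At the first step, the release of nucleotides, 2 of 10 genes rose and 2 fell, beside 6.1% and 6.64% of all genes. With so few genes these counts are no result about this step. Slc17a9, the vesicular nucleotide transporter that loads ATP into secretory vesicles, read 6.23, 5.82, 6.26 and 6.22 in WT and 7.75 and 7.90 in Y1KO. The groups were far apart, with WT replicate 2 the lowest, and the rise was 1.69 (SE 0.14, limma adjusted p = 0.000327) or 3.23-fold. Ano6, a calcium-activated channel and lipid scramblase, read 9.86, 9.37, 9.85 and 9.86 in WT and 10.33 and 10.29 in Y1KO. Its rise of 0.57 (SE 0.15, limma adjusted p = 0.0366) lost the call in 6 of 14 alternatives, among them leaving out WT replicate 1, WT replicate 4 or either Y1KO array.

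Slco2a1, a prostaglandin transporter also described as part of an ATP-permeable anion channel, read 7.14, 7.45, 6.89 and 7.08 in WT and 5.91 and 5.50 in Y1KO. It fell by 1.43 (SE 0.17, limma adjusted p = 0.00148) and lost the call in 1 of 14 alternatives, without moderation of the variance. Gjc1, the gap junction protein connexin 45, read 6.42, 6.47, 6.71 and 6.45 in WT and 5.36 and 5.46 in Y1KO, and fell by 1.10 (SE 0.11, limma adjusted p = 0.000834). For both genes the Y1KO arrays lay entirely below the WT arrays. The pannexin channel gene Panx3, which is typical of osteoblasts, was 0.74 higher without passing the test (limma adjusted p = 0.152), with WT replicate 2 at 10.1 and the other WT arrays at 11.0 to 11.3, beside 11.7 on both Y1KO arrays.

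No receptor for ATP or ADP passed the test. Of 7 P2X channel genes and 7 P2Y receptor genes, 0 rose and 0 fell by limma, where 6.1% of all genes were called higher and 6.64% lower. An unadjusted p under 0.05 was found for 1 higher P2X gene and for 1 higher and 1 lower P2Y gene, beside 24.3% of all genes. These were P2rx5 (0.33), P2ry13 (0.21) and P2ry1 (-0.41), each with both Y1KO arrays outside the WT range. With so few genes, counts this near the shares over all genes are no result about the receptors. P2rx4, the P2X gene with the highest WT percentile (84.7), differed by 0.08 (95% interval -0.19 to 0.35). P2rx7, a receptor that opens at high ATP, read 4.93 to 5.43 in WT and 4.93 and 5.08 in Y1KO, with a difference of -0.12 (95% interval -0.44 to 0.21). P2rx4 was the only one of these P2 genes above the median of all genes in WT, and for the others the array could miss a change.

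Other enzymes that make or split nucleotides outside the cell also did not pass. Of 6 such genes measured, 0 rose and 0 fell by limma, and 2 had an unadjusted p under 0.05, both lower, beside 24.3% of all genes in either direction. Enpp3 differed by -0.74 (95% interval -1.27 to -0.21, limma adjusted p = 0.0791). Acpp, at percentile 24.4 of the WT means, differed by -0.26 (95% interval -0.47 to -0.05, limma adjusted p = 0.116). For both the Y1KO arrays lay entirely below the WT arrays. Alpl, the alkaline phosphatase of mineralising osteoblasts, which also releases adenosine from AMP, read 11.4 to 11.7 in WT and 11.8 on both Y1KO arrays, a difference of 0.23 (95% interval -0.02 to 0.47). Entpd8, the remaining surface member of the Entpd family, read 4.04 to 4.16 in WT and 4.30 and 4.25 in Y1KO. Its difference was 0.17 (95% interval -0.03 to 0.36), at percentile 25.2 of the WT means. For Alpl and Entpd8 the Y1KO arrays lay entirely above the WT arrays. Of 7 intracellular 5′-nucleotidases 0 rose and 0 fell by limma, with 2 lower at an unadjusted p under 0.05, beside the same 24.3%.

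Among the adenosine transporters, 1 of 7 genes fell, beside 6.64% of all genes. Slc29a1 encodes ENT1, the equilibrative transporter that carries adenosine across the plasma membrane. It read 10.45, 10.55, 10.33 and 10.46 in WT and 8.94 and 8.93 in Y1KO. The groups were tight and far apart, and it fell by 1.51 (SE 0.09, limma adjusted p = 0.000159), or 2.85-fold. It was the only call among 7 nucleoside transporters, with 0 more at an unadjusted p under 0.05, beside 24.3% of all genes. The call held in all 14 alternatives, with differences of -1.56 to -1.45.

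Of 7 genes of adenosine removal and purine salvage, 1 rose and 1 fell, beside 6.1% and 6.64% of all genes. Adk, adenosine kinase, which returns adenosine to AMP inside the cell, read 7.94, 7.80, 7.83 and 7.90 in WT and 8.26 and 8.25 in Y1KO, and rose by 0.39 (SE 0.09, limma adjusted p = 0.0207). Pnp, the phosphorylase that splits inosine, read 7.93, 8.28, 8.11 and 7.98 in WT and 7.59 and 7.51 in Y1KO, and fell by 0.53 (SE 0.11, limma adjusted p = 0.0173). Neither was called with 1 Y1KO array left out, where the differences were 0.38 and 0.39 for Adk and -0.57 and -0.49 for Pnp, and Adk was not called with the replicate number as a block, at 0.38. Ada, which turns adenosine into inosine, differed by -0.40 (SE 0.14, limma adjusted p = 0.101), with 5.89 to 6.30 in WT and 5.52 and 5.86 in Y1KO.

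**Figure D3:**
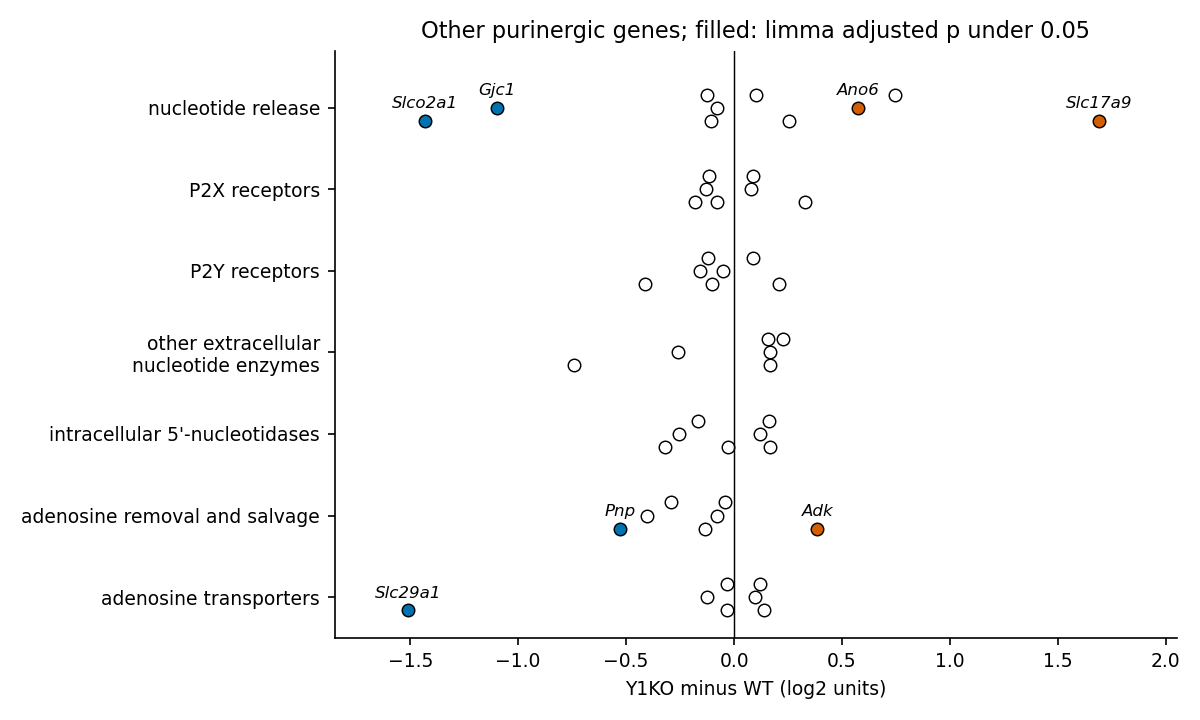
Difference between Y1KO and WT in log2 units (horizontal axis) for the 51 other purinergic genes, 1 point per gene, in rows by role. Filled and named points passed the limma test, orange for higher and blue for lower; Slc17a9 at 1.69 and Slc29a1 at -1.51 stand furthest from 0, and the rows of P2X and P2Y receptors hold no filled point.

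The genes closest to Nt5e over the 6 arrays were found by the root mean square distance between log2 profiles, each centred on its own mean. They were Nebl, an actin-binding protein gene, at 0.15, the stress-induced transcription factor gene Atf3 at 0.19, Slc17a9 at 0.20, the protocadherin gene Dchs1 at 0.21 and the Sp-family transcription factor gene Sp6 at 0.22. Their differences between genotypes were 1.77, 1.82, 1.69, 1.64 and 1.54. The distance is set mostly by the step between genotypes. For Entpd1, the measured gene with the lowest difference, the closest were Olfr116, Majin, Klk15, Trp53rka and Hmga2, at distances of 0.05 to 0.06, and their differences between -0.19 and -0.07 were small like its own.

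Entpd3 followed another pattern, which was looked at after its values were seen. Its order over the 6 arrays, from WT replicate 2 through WT replicates 1, 4 and 3 to Y1KO replicates 1 and 2, was also the order of the mean of the osteoblast markers. That mean stood, relative to its WT mean, at -0.60, -0.04, 0.27 and 0.36 in WT replicates 2, 1, 4 and 3, and the Y1KO arrays stood at 0.62 and 0.73. The order of this mean was set by Dmp1 and Phex: without them the remaining 5 markers averaged -0.24, 0.05, 0.09 and 0.10 in WT replicates 2, 3, 1 and 4, and 0.33 and 0.29 on the Y1KO arrays, which is not the order of Entpd3. Dmp1, a matrix protein gene of late osteoblasts and osteocytes, took the same order, from 8.85 in WT replicate 2 to 11.96 in Y1KO replicate 2. Ibsp, bone sialoprotein, also took it, while the other 5 of the 7 osteoblast markers did not. Over all genes 240, or 1.2%, had this order.

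Phex, an osteocyte endopeptidase gene, read 7.46, 6.36, 9.30 and 8.92 in WT, in replicate order, and 9.10 and 9.98 in Y1KO, so it overlapped between genotypes. It parted the WT arrays into the same low and high pair as Entpd3. The genes closest to Entpd3 by the same distance were B4galnt3 at 0.18, the Wnt antagonist gene Dkk1 at 0.18, the potassium channel gene Kcnk1 at 0.22, Kazald1 at 0.24 and Galnt5 at 0.26. Dkk1 read 5.86, 5.01, 6.98 and 6.71 in WT, in replicate order, and 7.52 and 8.16 in Y1KO. The spread of Entpd3 within WT was shared by other genes on the same arrays, whereas Nt5e read 7.08 to 7.51 on those 4 arrays. The part of the osteoblast markers in the difference of Entpd3 was not tested.

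**Figure D4:**
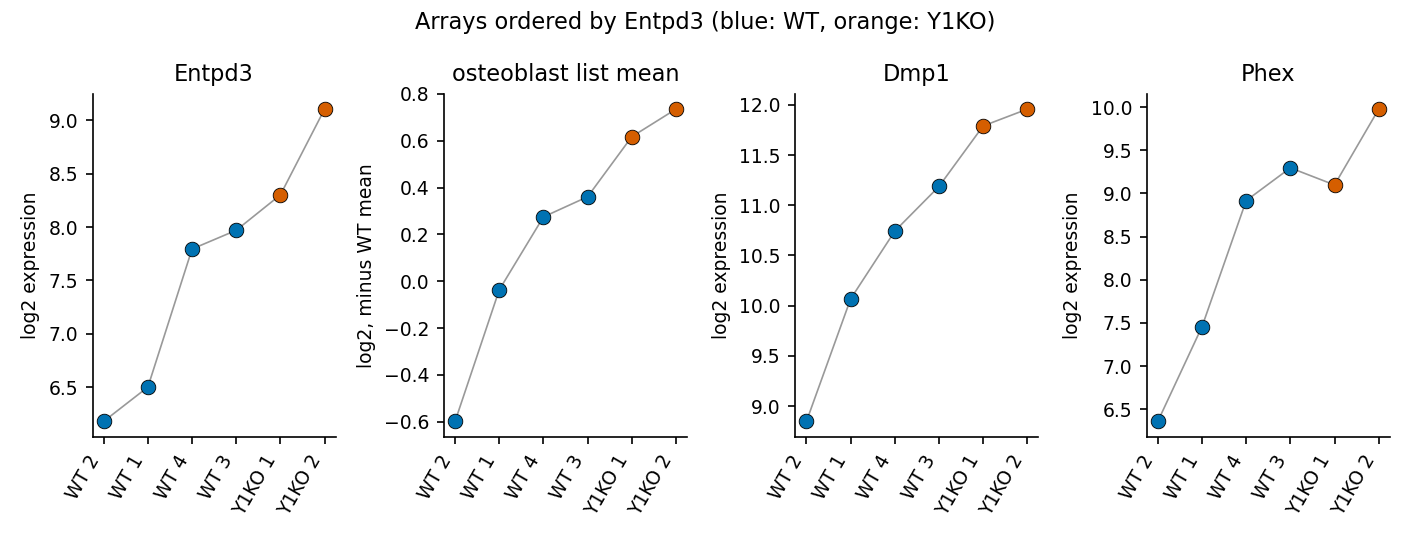
Values on the 6 arrays, ordered along the horizontal axis by Entpd3, for Entpd3, the mean of 7 osteoblast markers, Dmp1 and Phex (log2 units; blue, WT; orange, Y1KO). The first 3 panels climb at every step, from 6.18 to 9.11 for Entpd3, while Phex drops between WT replicate 3 and Y1KO replicate 1, and the order of the marker mean rests on Dmp1 and Phex.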

How the data were processed

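The authors deposited 1 table with a log2 expression value for each of 28815 probe sets on each of 6 arrays. Per the submitters' processing notes RMA and limma were used, and no version, setting, genome build or annotation is given in the sources used here. Array medians over all probe sets differed by at most 0.06, and no normalization was added. Over the genes analysed the medians were 5.62 and 5.63 in Y1KO and 5.67 to 5.71 in WT. Depth does not apply to arrays, and their number limits the precision.

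Probe sets with exactly 1 gene symbol in the repository's platform annotation (21780; 1605 had several and 5430 were not listed) named the genes, and the one with the highest mean stood for a gene, which left 19935 genes. Genotype was the only factor in a linear model (limma 3.58.1, R 4.3.3, lmFit and eBayes, two-sided), tested on simulated data first. P-values were adjusted by Benjamini-Hochberg over all genes, with calls at 0.05. Adjusted p-values are printed for the other purinergic genes and not for Nt5e and the Entpd genes.

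The genes, the lists and the alternatives were chosen with earlier results of these data known. Named were all listed genes, up to 3 called genes per direction and role, and the 5 closest profiles of the genes with the highest and lowest difference, without predicted genes. The alternatives were quantile normalization, median centring, a filter at the 40th percentile, the mean of probe sets, trend and robust options, no moderation, array weights, the replicate block and leaving out each array.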

Additional observations from a re-analysis of the deposited data

Results flagged for a closer look

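In the 4 WT arrays, 3 of the 15 genes examined (Nt5e, the Entpd genes and the called purinergic genes) had 1 array far from the rest by Dixon's criterion, which chance meets in about 1 of 20 groups. Entpd2 read 4.85 in WT replicate 4, where the other WT arrays read 4.49 to 4.53. Slc17a9 read 5.82 in WT replicate 2, where the others read 6.22 to 6.26. Ano6 read 9.37 in WT replicate 2, where the others read 9.85 to 9.86. Without WT replicate 2 the difference of Slc17a9 was 1.59 and that of Ano6 0.45.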

How the results depend on the processing

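Nt5e, Entpd3, Entpd4, Entpd5 and Entpd7 kept their direction in all 14 alternatives, and Entpd2 in the 13 that held it. For genes whose groups did not overlap this is no check of direction, since leaving out or weighting arrays cannot change the sign. No moderation, the trend and robust options, the filter and the mean of probe sets left their differences unchanged. The difference of Entpd1 changed sign without Y1KO replicate 1, and that of Entpd6 with array weights, with the replicate block, without WT replicate 3 and without Y1KO replicate 1. The filter at the 40th percentile removed Entpd1 and Entpd2. Over all genes 1217 were called higher and 1324 lower; without moderation 140 and 204, and leaving out 1 array 152 to 1172 and 335 to 1290, with the lowest counts without Y1KO replicate 2. Of Nt5e and the Entpd genes 4 were called higher, 1 without moderation and 2 to 5 leaving out 1 array. Of the other purinergic genes 3 rose, 1 without moderation and 1 to 4 leaving out 1 array, and 4 fell, 2 without moderation. Higher genes made up 47.9% of all calls and 60.5% with arrays centred on their medians. WT and Y1KO share replicate numbers 1 and 2 only, and nothing in the labels ties them: deviations of same-numbered arrays correlated at 0.01 and -0.20. With the replicate block, where WT replicates 3 and 4 do not enter the difference, 5 of Nt5e and the Entpd genes were called higher. Of the other purinergic genes 2 rose and 6 fell with this block. Slc17a9, Gjc1 and Slc29a1 kept their calls in all 14 alternatives. Signal near the bottom of the range limits Entpd1, Entpd2 and most P2 receptors.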
